A study of Phanerodontia chrysosporium with 12 samples.

Results

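A set of 100 gene models of Phanerochaete chrysosporium, out of 13602 in the count tables, was lower in the cultures sampled 1 h after oak extractives were added than at once, 3 h or 6 h after. Most of the set was not called different from its starting level at 3 h or 6 h, but most of all tested models were not either. Of all tested models, 9.59% were called at 3 h and 7.53% at 6 h. In the set, 3 models were called lower than at the start at 3 h, where 4.62% of all tested models were, and 0 higher, where 4.97% were. At 6 h, 1 was called lower, where 3.18% of all tested models were, and 3 higher, where 4.35% were. The set was selected on the measured levels themselves. Reads of 2 very abundant models were set aside, and levels were expressed as CPM, the reads of a model per 1000000 of the remaining reads of its library. A model was kept if its mean CPM reached 10 at any time, if its mean log2(CPM + 2) at 1 h lay at least 1 unit below the means at T0, 3 h and 6 h alike, and if all 3 libraries at 1 h lay below all 9 other libraries. The dip itself, and every comparison with 1 h, is therefore a description of how the models were chosen. No p-value is given for these comparisons, and nothing is read from how many of them passed a threshold.

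Phanerochaete chrysosporium is a white-rot basidiomycete, a fungus that breaks down lignin in wood. Heartwood contains small extractable molecules, many of them phenolic, that can harm fungi, and wood-decay fungi meet them as soon as they grow into wood. The amount of a transcript follows its synthesis and its decay, so a messenger RNA that is not replaced can fall within an hour and return once it is made again. The tables identify each model by a number alone and pair none of them with a gene name or function. The models are therefore described by their levels, time courses and lengths, and no role is given to any of them.

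All cultures were of the homokaryotic strain RP78, kept as standing cultures in 20 ml of a glucose minimal medium at 37 °C, and were 4 days old. Every culture, T0 included, received acetone-extracted Quercus petraea heartwood material at 100 µg/ml from a stock of 200 mg/ml in DMSO. T0 mycelium was collected at once, and the other groups after 1, 3 or 6 h, with 3 biological replicates at each time. Cultures given DMSO alone over the same hours were not analysed here, so time in culture, solvent and extractives cannot be told apart. Mycelium was measured in bulk, so a lower level may mean fewer hyphae of some kind or less RNA in each, which cannot be told apart.

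Total gene reads ran from 2137932 to 10697807 per library. The 2 abundant models held 4.31%, 46.8% and 50.9% of them in T0 replicates 1 to 3 and 9.61%, 65.9% and 45.0% in those of 1 h. Their share was 3.12% to 15.7% at 3 h and 10.9% to 18.2% at 6 h. Outside that pair, 1 h replicate 2 kept the fewest reads, 729521, and 3 h replicate 1 the most, 10364009. The libraries at 1 h thus included 2 of the 4 shallowest, the other 2 being T0 replicates 2 and 3. The remaining library at 1 h, replicate 1, had 6326762 reads left, and its summed level of the dipping models lay between those of the other 2.

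The 100 models together took up a far smaller share of the reads at 1 h than at the other times. Their reads made up 2.42%, 1.72% and 2.91% of the remaining reads in T0 replicates 1 to 3. At 1 h they made up 0.813%, 0.869% and 0.716%. At 3 h the shares were 2.23%, 2.21% and 2.61%, and at 6 h they were 2.41%, 2.76% and 2.13%. The 95% Wilson intervals of these shares, which cover counting error only, were no wider than 0.0298 percentage points to either side. The T0 mean was 2.35% ± 0.601 and the 1 h mean 0.799% ± 0.0777, while 3 h had a mean of 2.35% ± 0.227 and 6 h one of 2.43% ± 0.316 (SD, n = 3). T0, 3 h and 6 h overlapped. T0 spread most, with replicate 2 the lowest and replicate 3 the highest of the 9 libraries outside 1 h.

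**Figure D1:**
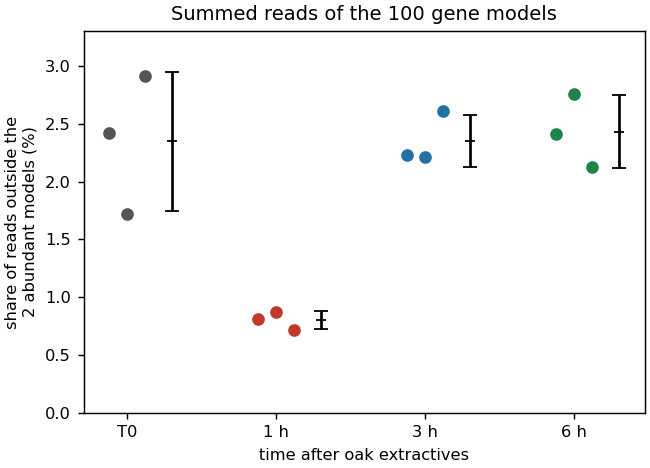
Summed reads of the 100 gene models as a percentage of all reads outside the 2 abundant models, by time after oak extractives. Points are libraries and bars are the mean and SD of 3 libraries. The 3 libraries at 1 h lie between 0.716% and 0.869%, below every other library, as the choice of models requires of each model.

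The depth of the dip was measured as the gap, in log2(CPM + 2), between the mean at 1 h and the nearest of the other 3 means. Its median over the 100 models was 1.34 (quartiles 1.16 and 1.61), or 2.53-fold, and its largest value was 2.40, or 5.28-fold. The gap was at least 1.5 in 36 models and at least 2 in 8. The nearest time was T0 in 43 models, 3 h in 38 and 6 h in 19. A further 31 models met the level and the gap but had a library at 1 h that overlapped another time. The edge of the set was not sharp. Proteins 2989820 and 3003821 were just inside, each with a gap of 1.00 (1.0011 and 1.0026), and proteins 3016490 and 2987796 were just outside, with gaps of 0.9997 and 0.9955. The last of these stood at 163, 78.1 and 146 CPM at T0, 65.3, 67.2 and 47.2 CPM at 1 h, 118, 144 and 137 CPM at 3 h and 120, 157 and 91.6 CPM at 6 h, and so had much the same course as members of the set.

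**Figure D2:**
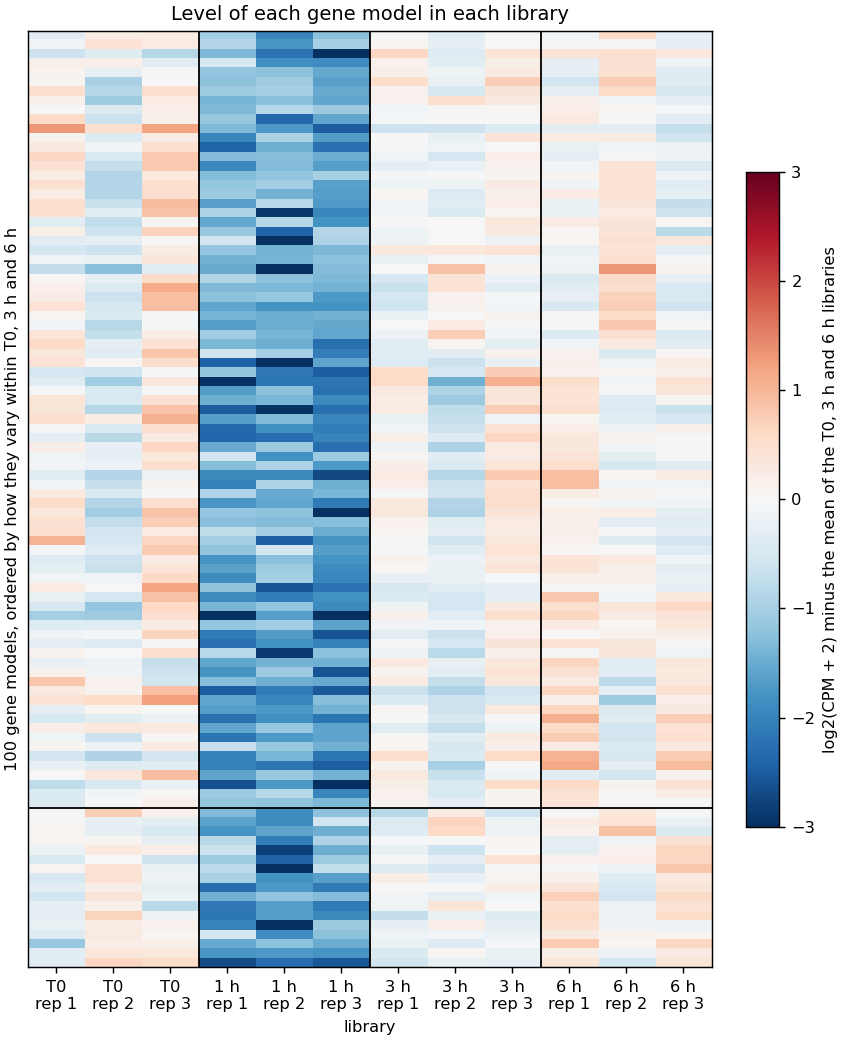
Level of each of the 100 gene models (rows) in each of the 12 libraries (columns), as log2(CPM + 2) minus the mean of the T0, 3 h and 6 h libraries, with colours cut at 3 units to either side. Rows are ordered by how they vary among replicates within T0, 3 h and 6 h, and the horizontal line marks where this order was cut into groups of 83 and 17 models. All 3 columns at 1 h lie below every other column in each row, as the choice requires, by a gap of 0.0147 to 1.71 units. The other columns vary too, as in protein 2913128, which ran from 29.9 to 182 CPM at 3 h.

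The same rule was applied to each of the other times to see how often a single time stood apart. It found 149 models that dipped and 133 that peaked at T0, 103 that peaked at 1 h, 2 that dipped and 5 that peaked at 3 h, and 5 of each kind at 6 h. Dips and peaks at 1 h were thus about equally many, and few models stood alone at 3 h or 6 h. The libraries with 45.0% to 65.9% of their reads in the 2 abundant models were all at T0 or 1 h. At 3 h and 6 h the largest such share was 18.2%. The bearing of this on the counts was not tested.

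Protein 2867698, a model of 852 nt, had the deepest dip. It stood at 265, 255 and 763 CPM in T0 replicates 1 to 3, at 45.0, 171 and 41.8 CPM at 1 h, at 599, 436 and 761 CPM at 3 h and at 849, 635 and 702 CPM at 6 h. The libraries at 1 h were far apart here, as replicate 2 was well above replicates 1 and 3 but still below every library of the other times. Protein 2910162 (408 nt, the shortest model of the set) went from 114, 48.1 and 161 CPM at T0 to 13.9, 9.60 and 17.0 CPM at 1 h. It was at 106, 51.7 and 149 CPM at 3 h and at 123, 65.9 and 55.2 CPM at 6 h. Replicate 2 was the lowest library both at T0 and at 3 h. The value in 1 h replicate 2 rested on 7 reads.

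Protein 3022570 (552 nt) fell most evenly among the models with deep dips. It stood at 129, 249 and 237 CPM at T0 and at 23.2, 31.5 and 26.0 CPM at 1 h. By 3 h it was at 108, 138 and 135 CPM, and by 6 h at 208, 110 and 209 CPM. Every library at 1 h was thus at most 31.5 CPM and every other library at least 108 CPM. Protein 2991110 (1250 nt) had the fourth-deepest dip by this measure, but 1 library made it. Its levels at 1 h were 53.3 and 40.6 CPM in replicates 1 and 3 and 0 reads in replicate 2, where 3 reads would have given 4.11 CPM. At T0 it was at 62.9, 65.6 and 80.8 CPM, at 3 h at 71.2, 80.0 and 70.5 CPM, and at 6 h at 82.9, 109 and 101 CPM. Of its reads, 79.2% were not unique gene reads, so its level is uncertain in all libraries.

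**Figure D3:**
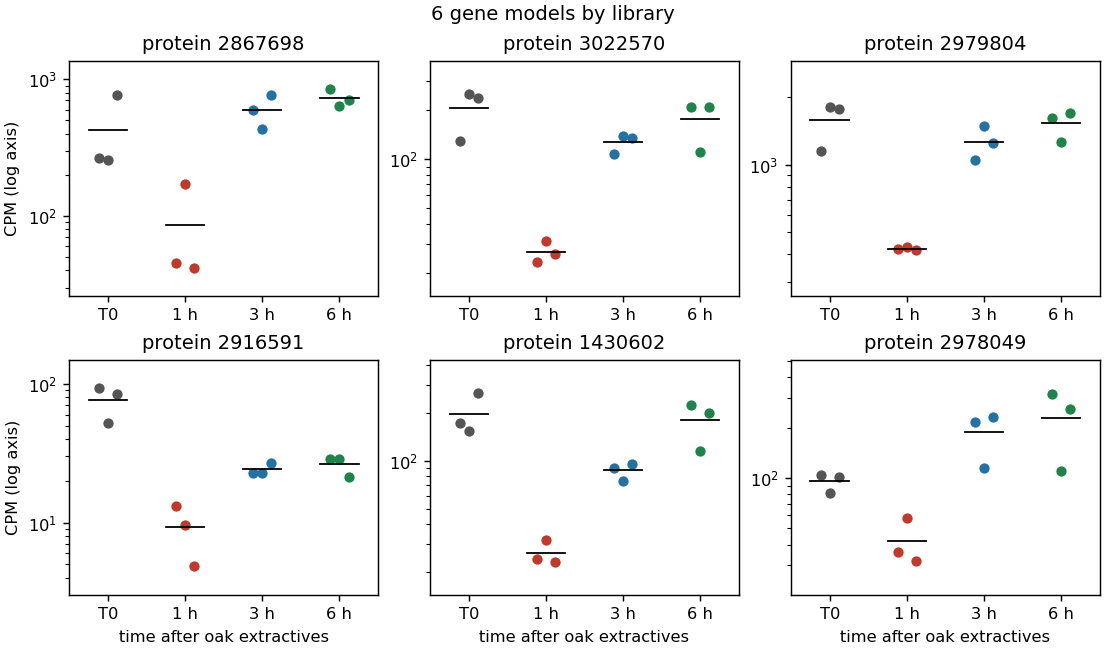
CPM of 6 of the gene models in each library, on log axes that differ between panels, by time after oak extractives. Points are libraries and lines are means of 3. Each model is lowest at 1 h. Protein 2916591 stays below T0 at 3 h and 6 h, protein 1430602 is below T0 at 3 h and overlaps it at 6 h, and protein 2978049 ends above T0.

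The set spanned a wide range of abundance, and a few models carried a large part of its reads. Of the 100 models, 8 (against 1.01% of the 9447 models that met the minimum level) had a mean of at least 1000 CPM at T0, and these 8 carried 48.4% of all reads of the set. They had at least 181 reads in every library at 1 h. Their dips ran from 1.02 to 1.56 with a median of 1.30, beside medians of 1.32 in the 39 models between 100 and 1000 CPM and 1.35 in the 51 between 10 and 100 CPM. The rule required a gap of at least 1 in every class, so these medians are given as a description only.

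Per length, the model with the highest level at T0 was protein 2975721 (741 nt). It stood at 1927, 889 and 1680 CPM at T0 and at 703, 548 and 490 CPM at 1 h. It was at 1295, 2406 and 1379 CPM at 3 h and at 1096, 1982 and 1075 CPM at 6 h. Replicate 2 was the lowest library at T0 and the highest at 3 h and 6 h. The next was protein 2979804 (1229 nt), which had 1155, 1811 and 1772 CPM at T0 and 423, 429 and 417 CPM at 1 h. The libraries at 1 h were almost equal, with a mean of 423 ± 5.90 CPM (SD, n = 3), against 1579 ± 368 CPM at T0. At 3 h it was at 1053, 1491 and 1248 CPM and at 6 h at 1614, 1269 and 1705 CPM.

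Protein 2973956 (1523 nt) fell from 1904, 863 and 2436 CPM at T0 to 369, 577 and 448 CPM at 1 h. It stood at 1183, 1230 and 1536 CPM at 3 h and 1336, 1885 and 1045 CPM at 6 h. Protein 2967692 (1053 nt) was at 1034, 796 and 1654 CPM at T0 and at 412, 589 and 333 CPM at 1 h. Its libraries reached 1294, 1097 and 1648 CPM at 3 h and 1671, 1407 and 1049 CPM at 6 h. In both models 1 h replicate 2 was the highest of its time, and replicate 2 was the lowest at T0, so these 2 libraries lay closest together.

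At the other end of the set, few reads stood behind the dip. In 1 h replicate 2, 33 of the 100 models had fewer than 10 reads and 8 had none, against 15.6% and 0.677% of the models at the minimum level. In 1 h replicate 3 there were 16 with fewer than 10 reads, and in replicate 1 only 1, protein 13, with 4 reads. No model of the set was at 0 in more than 1 library at 1 h. Protein 2911725 (1797 nt), the model with the flattest course outside 1 h, shows this limit. Its mean log2(CPM + 2) over T0, 3 h and 6 h varied by only 0.027, with 11.2, 11.2 and 7.34 CPM at T0, 11, 7.41 and 11.4 CPM at 3 h and 7.73, 14.2 and 8.95 CPM at 6 h. Its 6.32, 1.37 and 1.21 CPM at 1 h came from 40, 1 and 2 reads. Protein 3026079 (1830 nt), the next flattest with a range of 0.058, had 398 reads or more in each library at 1 h. It stood at 1540, 603 and 1558 CPM at T0, at 491, 546 and 353 CPM at 1 h, at 989, 992 and 1309 CPM at 3 h and at 1010, 1477 and 879 CPM at 6 h.

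Counts were also fitted in edgeR over all 11813 models with enough reads, with the times as groups. A model was called at an adjusted p under 0.05 (quasi-likelihood test, BH adjustment over all tested models). All 100 models of the set entered the fit. In the comparisons that the choice had used, 79 were called lower at 1 h than at T0, where 3.15% of all tested models were. At 3 h, 69 were called higher than at 1 h, with 1.90% of all tested models, and at 6 h, 81 were, with 2.71%. These counts follow from the choice and are given as a description. All 3 comparisons were called for 63 models and none of them for 10, among them proteins 2991110 and 2911725.

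Whether the dip appears in libraries that had no part in the choice was examined by leaving out 1 replicate number from all 4 times, a check added after the data were seen. The rule was applied to the other 8 libraries, and the chosen models were then read in the 4 left out. Without the libraries numbered 1 the rule chose 159 models, 88 of them in the set. In 130 of the 159 (81.8%) the left-out library at 1 h was below the left-out libraries of T0, 3 h and 6 h, against 27.9% of 9516 models at the minimum level. Without those numbered 2 it chose 198 models, and 120 of them (60.6%) had the left-out library at 1 h lowest, against 23.2% of 9598. Without those numbered 3 it chose 95 models, and 83 (87.4%) had it lowest, against 35.3% of 9419. Of these 198 and 95 models, 79 and 67 were in the set. The left-out library at 1 h was thus lowest in most of the chosen models for each number. The chosen models were only in part those of the set, and each number left out 1 library per time. These shares therefore describe the rule and are not a test of the set itself.

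The size of the dip was smaller in the libraries that were left out than in those used to choose. The gap of the left-out library at 1 h to the nearest of the other 3 reached 1 unit in 49 of 159 models (30.8%), against 1.84% of all models at the minimum level, for number 1. It did so in 37 of 198 (18.7%), against 3.08%, for number 2, and in 53 of 95 (55.8%), against 4.53%, for number 3. The median gap was 0.69, 0.20 and 1.10 in the chosen models, and -0.32, -0.53 and -0.34 in all models at the minimum level. Number 2, which includes the shallowest library at 1 h and the T0 library with low shares, gave the weakest return of the dip.

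**Figure D4:**
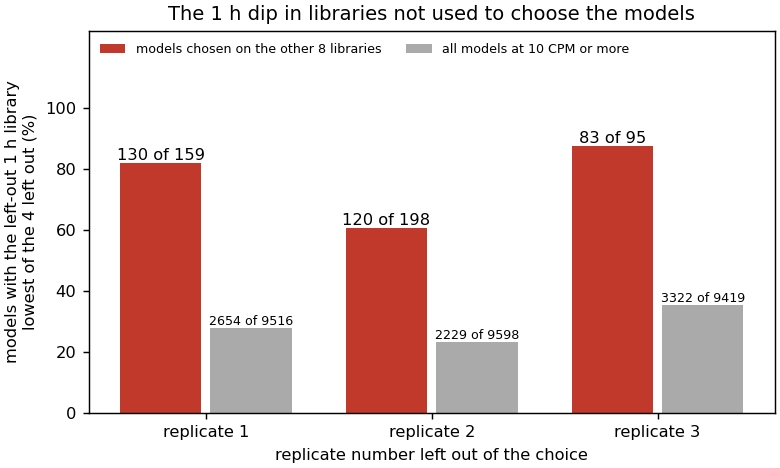
Percentage of gene models in which the 1 h library was the lowest of 4 libraries (1 each of T0, 1 h, 3 h and 6 h) that were left out when models were chosen. Red bars are models chosen by the rule on the other 8 libraries and grey bars are all models at 10 CPM or more. The red bars stand at 81.8%, 60.6% and 87.4% and the grey bars at 27.9%, 23.2% and 35.3%.

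Single libraries at 1 h were also left out in turn. Without 1 h replicate 1 the rule chose 165 models, and in 109 of them (66.1%) that library was below all 9 libraries of the other times, against 7.09% of all models at the minimum level. Without 1 h replicate 2 the numbers were 108 of 157 (68.8%) and 14.3%, and without 1 h replicate 3 they were 95 of 102 (93.1%) and 18.7%. The 9 libraries had entered the choice, so part of each gap follows from it. These shares are a description of the rule and add nothing to the check above. Of the 165, 157 and 102 models, 94, 84 and 85 were in the set.

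The comparison of 3 h with T0 asked how far these transcripts had returned. The rule fixes no order between these times, but it admits only models at least 1 unit higher at 3 h and 6 h than at 1 h. Models that stayed at their 1 h level could not enter. The set was also more abundant, with a median of 87.7 CPM at T0 against 46.3 CPM for models at the minimum level. The shares set beside all tested models below are therefore descriptions, shaped in part by the choice. No model of the set was called higher at 3 h than at T0, where 4.97% of all tested models were, and 3 were called lower, where 4.62% were. The count of lower models was thus close to that over all models. The fitted log2 fold changes of the set had a median of -0.06 (quartiles -0.35 and 0.24), against 0.03 (-0.41 and 0.50) over all tested models. Only 4 of the 100 differed at least 2-fold in either direction, against 17.1% of all tested models. For 45 of the 100 the 95% interval of the change lay within 2-fold of T0, which was so for 23.8% of all tested models. For the other 55 the data do not show whether the return was complete to within 2-fold.

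**Figure D5:**
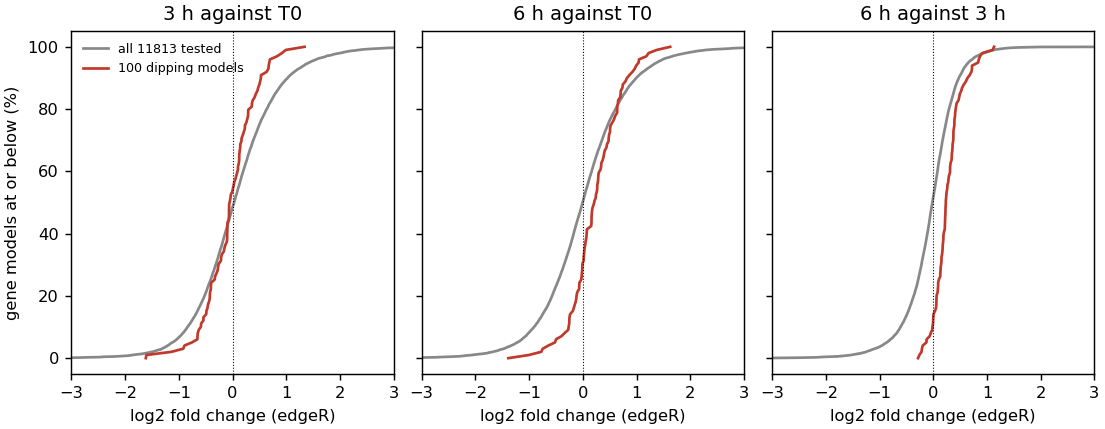
Cumulative percentage of gene models by edgeR log2 fold change at 3 h against T0, 6 h against T0 and 6 h against 3 h. Red lines are the 100 dipping models and grey lines all tested models, and the dotted line marks no change. The red lines cross 50% at -0.06, 0.21 and 0.23 and the grey lines at 0.03, -0.00 and -0.02, and the red lines rise more steeply.

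The 3 models called lower at 3 h had come back only in part. Protein 2916591 (1383 nt) stood at 92.6, 51.9 and 84.8 CPM at T0, at 13.3, 9.60 and 4.84 CPM at 1 h and at 22.8, 22.9 and 26.9 CPM at 3 h. Its libraries at 3 h lay close together, above all of 1 h and below all of T0. Relative to T0 it was lower at 3 h, at a log2 fold change of -1.60 (SE 0.295; edgeR BH-adjusted p = 0.00328). It was called in all 21 alternative fits, and its adjusted p in edgeR, DESeq2 or limma-voom ran from 4.35e-06 to 0.0270. Protein 1430602 (2021 nt) fell from 173, 153 and 268 CPM at T0 to 24.2, 31.5 and 23.0 CPM at 1 h and was at 90.5, 74.3 and 96.1 CPM at 3 h. It was lower at 3 h than at T0 by a log2 fold change of -1.14 (SE 0.260), edgeR BH-adjusted p 0.0119. The call was lost without T0 replicate 3 (edgeR BH-adjusted p 0.0552), without 3 h replicate 1 (0.0607) and with the share of the abundant models as a covariate (0.0806).

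The last of the 3, protein 1649750 (1914 nt), is named because the count was small, after its values were seen. It stood at 176, 144 and 259 CPM at T0, 37.8, 48.0 and 30.3 CPM at 1 h and 105, 76.1 and 117 CPM at 3 h. The change in log2 from T0 to 3 h was -0.92 (SE 0.245), edgeR BH-adjusted p 0.0272. The call was kept in 14 of 21 alternative fits and lost without T0 replicate 3 or any 1 of the 3 h libraries (edgeR BH-adjusted p 0.0649 to 0.126). It was also lost with the replicate block over all 12 libraries (edgeR BH-adjusted p 0.0502), in the 6 libraries alone without a block (0.0729) and with the share of the abundant models as a covariate (0.118). The paired fit of T0 and 3 h, whose pairing was inferred from these same counts, kept it (edgeR BH-adjusted p 0.00272). The count of 3 became 1 without T0 replicate 3 or without 3 h replicate 1, where 5.69% and 4.07% of all tested models were called.

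Same-numbered libraries of T0 and 3 h deviated from their group means together, so a paired fit of these 6 libraries was added after the data were seen. The labels number the replicates but do not state that equal numbers were paired. The pairing was thus inferred from the same counts that were then fitted, and the calls of this fit are given as a description only. With the replicate number as a block, 16 of the 100 models were called at 3 h against T0, 7 higher and 9 lower. Of all 11739 models tested in that fit, 11.4% were called higher and 10.5% lower, so the set again held no more calls than models at large. The 16 included the 3 above and, among those higher, protein 2978049, which rose by 0.97 in log2 (SE 0.188; edgeR BH-adjusted p = 0.00223).

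At 6 h, 3 models of the set were called higher than at T0, where 4.35% of all tested models were, and 1 was called lower, where 3.18% were. The median log2 fold change was 0.21 (quartiles -0.04 and 0.52), against -0.00 (-0.46 and 0.47) over all tested models. In 69 of the 100 models the fitted change was above 0, against 49.7% of all tested models, and over 20 alternative fits that number ran from 60 to 82. On the scale that chose the set the shift was smaller, as mean log2(CPM + 2) was higher at 6 h than at T0 in 55 of the 100 models, against 43.1% of those at the minimum level. On that scale the median difference was -0.01 in the larger and 0.17 in the smaller of the groups of 83 and 17 models described further on. At least 2-fold differences were seen in 8 models, against 18.2% of all tested models, a comparison that the choice shaped as well.

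Protein 2978049 (1276 nt) ended above its T0 level. It stood at 105, 81.2 and 102 CPM at T0, 36.2, 57.6 and 32.1 CPM at 1 h, 216, 115 and 233 CPM at 3 h and 317, 110 and 259 CPM at 6 h. All 3 libraries at 6 h were above those of T0, with replicate 2 only just so. The log2 fold change at 6 h against T0 was 1.37 (SE 0.326), edgeR BH-adjusted p 0.0179. Of 20 alternative fits 15 kept the call, which was lost without T0 replicate 1, T0 replicate 3, 6 h replicate 1 or 6 h replicate 3 (edgeR BH-adjusted p 0.0601 to 0.0694) and in the fit of T0 and 6 h alone (0.0514). Protein 2971836 (636 nt) was at 145, 159 and 178 CPM at T0, 41.3, 54.8 and 42.4 CPM at 1 h and 203, 143 and 202 CPM at 3 h, and it reached 426, 159 and 336 CPM at 6 h. Its replicate 2 at 6 h lay within the range of T0. Against T0 it was higher by 1.04 in log2 (SE 0.287), edgeR BH-adjusted p 0.0373. Only 10 of 20 alternative fits kept this call, and every fit without a replicate 1 or 3 library lost it, while leaving out any replicate 2 did not (edgeR BH-adjusted p 0.0508 to 0.135 in the fits that lost it). The replicate block over all 12 libraries (edgeR BH-adjusted p 0.0696) and the fit of T0 and 6 h alone (0.123) ended it too.

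Protein 3030673 (1053 nt), added after its values were seen, had 21.8, 19.4 and 20.4 CPM at T0, 4.90, 4.11 and 3.03 CPM at 1 h, 28.0, 12.2 and 25.7 CPM at 3 h and 59.2, 21.1 and 52.1 CPM at 6 h. The 3 levels at 1 h came from 31, 3 and 5 reads. Its rise over T0 at 6 h was 1.22 in log2 (SE 0.359), edgeR BH-adjusted p 0.0495. Only 4 of 20 alternative fits kept the call, and of those that left out a library only those lacking replicate 2 of 3 h or of 6 h did. With the replicate block it was lost (edgeR BH-adjusted p 0.0617). In these 3 models replicate 2 was the lowest library at 6 h. Protein 2916591 was still low at 6 h, with 28.6, 28.9 and 21.3 CPM, and differed from T0 by -1.39 in log2 (SE 0.294), edgeR BH-adjusted p 0.00915. This call was lost in 1 of 20 alternative fits, without T0 replicate 1 (edgeR BH-adjusted p 0.0526). Protein 1430602, by contrast, had reached 223, 115 and 200 CPM at 6 h and differed from T0 by -0.01 in log2 (SE 0.257).

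The count of 4 called at 6 h depended on single libraries, and so did the share called over all tested models. It was 0 without T0 replicate 1, 2 without T0 replicate 3, 3 h replicate 1 or 3 h replicate 3, and 7 without 3 h replicate 2. Dropping replicate 1 or replicate 3 of 6 h left 1. Of all tested models, 7.53% were called with all 12 libraries, 3.53% without T0 replicate 1 and 8.32% without 3 h replicate 2. In the unpaired fit of all 12 libraries, 94 of the 100 models were called in none of the comparisons among T0, 3 h and 6 h. The paired fit of T0 and 3 h, with its 16 calls, does not enter that count. Most models at large were uncalled too. In the unpaired fit 9.59% of all tested models were called at 3 h against T0, 7.53% at 6 h against T0 and 0% at 6 h against 3 h.

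Between 3 h and 6 h the edgeR test called 0 models of the set and 0% of all tested models, higher or lower. At an unadjusted p under 0.05 there were 8 models of the set and 426 of all tested, DESeq2 called 1 of the set and 8 of all tested, and limma-voom called 0 of both. The fitted changes of the set nevertheless leaned to one side. The models were read in the same libraries and moved together in part, so counts of models are not counts of replicates. The set was also chosen on its levels and was more abundant, so its comparison with all tested models is a description only. The fitted change from 3 h to 6 h was above 0 in 87 of the 100 models, against 48.3% of all tested models, with a median of 0.23 (quartiles 0.10 and 0.39) against -0.02 (-0.28 and 0.23). Over 20 alternative fits the number above 0 ran from 67, without 6 h replicate 2, to 93, without 3 h replicate 3, and the median from 0.18 to 0.31. It was 76 without 3 h replicate 2. The SE of a single difference had a median of 0.32. On the scale that chose the set, 76 of the 100 models were higher at 6 h than at 3 h, against 39.8% of those at the minimum level. The largest rise, that of protein 1430602, was 1.13 in log2 (SE 0.258; edgeR BH-adjusted p = 0.799).

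Among replicates the 100 models moved together only in part. Deviations of log2(CPM + 2) from the group means were compared over the 9 libraries of T0, 3 h and 6 h, in which the rule fixes no order of replicates. The correlation between 2 models of the set had a median r of 0.29 over all pairs, against 0.08 for pairs of models at the minimum level. The share of pairs over 0.5 was 0.358 in the set and 0.239 overall. These are descriptions over 9 points, which share library depth. The set was also more abundant, with a median of 87.7 CPM at T0 against 46.3 CPM, and the pairs were not matched for level. Average-linkage clustering of these correlations was cut at 2 groups, a number set in advance, which held 83 and 17 models. The median r was 0.48 and 0.40 within the groups and -0.24 between them. The cut was made on the same correlations, so this contrast follows from it and does not show that there are 2 kinds of model.

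The groups were formed on these same deviations, so their replicate profiles are given as a description only. In the group of 83, T0 replicate 2 lay 0.40 below the T0 mean (median over models, log2 units) and replicate 3 lay 0.36 above it. In the group of 17, which included proteins 2979804 and 3022570, T0 replicate 2 lay 0.33 above the T0 mean and replicate 1 lay 0.26 below it. At 6 h, replicate 2 lay 0.01 above the mean in the larger group and 0.26 below it in the smaller. The median dip, which the rule held at 1 or more, was 1.33 in the larger group and 1.35 in the smaller. T0 replicate 2 was the lowest T0 library in 65 models of the set, against 48.4% of the models at the minimum level, and in 7 of the 8 models with at least 1000 CPM. The 2 abundant models held 46.8% of the reads in T0 replicate 2. They held 50.9% in T0 replicate 3, which was the highest T0 library in 61 models of the set, against 33.7% of the models at the minimum level. The part of T0 replicate 2 in the result was not tested beyond the fits without it.

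The models of the set were more abundant than most. Their mean level at T0 had a median of 87.7 CPM, against 46.3 CPM for the 9447 models at the minimum level. Per length, it was 76.1 CPM per kilobase, against 32.0. At 1 h the order was turned, with medians of 19.8 and 29.6 CPM per kilobase. The rule set a minimum level and asked for separate libraries, so these levels are given without a test. The set did not stand out in length, with a median of 1329 nt (quartiles 966 and 1692) against 1356 nt (908 and 1947). The longest, protein 2969444 at 3198 nt, was also the most abundant in CPM at T0 and is named after its values were seen, with 2418, 1151 and 2274 CPM at T0, 964, 1082 and 730 CPM at 1 h, 3323, 1981 and 3818 CPM at 3 h and 1528, 3863 and 1763 CPM at 6 h. Its highest library at 1 h and its lowest at T0, both replicate 2, were only 0.09 apart in log2(CPM + 2).

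The set resembled models at large in its share of reads that were not unique gene reads. In 4 of the 100 models more than 5% of the reads were not unique, against 4.10% of the models at the minimum level. These were proteins 2991110 (79.2%), 2928679 (28.8%), 2989820 (7.50%) and 1382464 (7.13%), and their levels are uncertain to that extent. With unique reads alone the rule found 96 models, all of them in the set.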

How the data were processed

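RNA from the mycelium of 12 cultures was sequenced on a HiSeq2500, and 1 table was deposited per sample. Per the file headers, the authors deposited read counts (unique and total gene reads) and RPKM values for each protein ID. Of the IDs, 482 had no read in any library. Counts were used as deposited. RPKM served to recover gene model lengths, which matched the deposited values to a relative gap of 2.09e-08, and to rank the models with the highest level. The sources used here do not name the aligner, counting tool, genome build or annotation, or say whether strand was used.

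Membership followed the rule stated in the results. The members and named models were chosen with earlier results of these data known. Models are named for the 4 deepest dips, the 4 highest RPKM at T0, the calls among T0, 3 h and 6 h, the 2 flattest courses and the edge of the rule.

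Total gene reads, the 2 abundant models included, were fitted in edgeR 4.0.16 (R 4.3.3; TMM, filterByExpr, glmQLFit, glmQLFTest, 8 residual degrees of freedom) over all 12 libraries with the time as the only term. Standard errors came from dividing the size of each log2 fold change by the root of its F statistic, and intervals use 8 degrees of freedom. The scripts were tested on simulated data. Alternatives used DESeq2 1.42.0 and limma 3.58.1. Deviations of same-numbered T0 and 3 h libraries were correlated at 0.347, 0.412 and 0.199, so the numbers were taken to pair these 2 times. No other pair of times had positive correlations for all 3 numbers. The labels themselves state no pairing.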

Additional observations from a re-analysis of the deposited data

How the results depend on the processing

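The number of models meeting the rule stayed within 1.5 times of 100 in 22 of 24 alternatives, but not always the same models. It was 147, with 64 of the set, when both abundant models stayed in the library total, 90, with 72 of the set, in libraries thinned to 729521 reads, and 142, with 66 of the set, in the 8 libraries with under 20% of reads in those models, which leave 1 library each at T0 and 1 h (chosen after seeing the data). TMM scaling shared 93 models, DESeq2 size factors 88 and removal of a length trend 90. Over single libraries left out it ran from 97 to 165. The cause was not tested.

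Members called at 3 h against T0 (3) became 6 by DESeq2, 1 with the share of the abundant models as a covariate, 16 in the paired fit of T0 and 3 h, and 1 to 4 with a library left out. With the replicate number as a block over all 12 libraries the count was 2. Members called at 6 h against T0 (4) became 10 by DESeq2, 7 by limma-voom, 1 in a fit of the 6 libraries alone, 2 with the replicate block and 0 to 7 with a library left out. At 6 h against T0, 7.53% of all tested models were called at first, 12.6% by DESeq2 and 10.3% by limma-voom. The share was 3.83% in the 6 libraries alone and 6.03% with the block. With a library left out that share ran from 3.53% to 10.4%. At 6 h against 3 h DESeq2 called 1 in place of 0, with 0.0677% of all tested models. The dip of models with few reads at 1 h is less precisely known.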
